A study of Mus musculus with 3 samples.

Results

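The genes described here were 9 complement components and regulators, chosen by name from the 22535 genes in the 3 count matrices: C1qa, C1qb, C1qc, C4b, C3, Cfb, Cd55, Cd59a and Serping1. Their unique molecular identifiers (UMIs, each standing for 1 captured transcript) were counted in cells that passed 2 filters (200 or more genes detected, no more than 50% of UMIs mitochondrial), by class of cells and by library.

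Single-cell libraries of mouse kidney cortex were made from WT1CreERT2; Rosa26-tdT fl/+ mice, in which tamoxifen switches on the red fluorescent protein tdT in cells that use the WT1 gene, mainly podocytes and part of the parietal epithelial cells (PECs) that line Bowman's capsule. The Sham library came from mice without ischemia, and the IRI24h-TDN and IRI24h-TD libraries from mice killed 24 h after a severe ischemia-reperfusion injury (IRI) of both kidneys. Sham and IRI24h-TDN mixed sorted tdT+ with tdT- cells, with tdT+ cells in excess, and IRI24h-TD held sorted tdT+ cells only. Each library pooled kidneys and each condition had 1 library, so no difference below has a replicate check and no p-value could be computed.

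The complement system is a cascade of plasma and cell-surface proteins that marks targets and attracts leukocytes. The classical pathway starts when C1q binds its target and the attached proteases split C4 and C2, the alternative pathway runs on C3, factor B and factor D, and all routes meet at the splitting of C3. Host cells carry CD55 and CD59 on their membranes and meet C1 inhibitor in fluid, which together hold the cascade in check; in the kidney, part of the complement protein is made locally rather than in the liver.

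Where 3 values stand together without names, their order is Sham, IRI24h-TDN, IRI24h-TD. Of 30008 barcodes, 26760 were kept (8047 of 10062, 9024 of 10062 and 9689 of 9884), with a median of 7746, 9151 and 9529 UMIs per cell. Between 102 and 114 barcode sequences were shared by any pair of libraries. Cells were clustered without the complement genes and named after markers as 17 classes, with "PTEC" for proximal tubular epithelial cells and paired names such as PEC/PTEC for clusters that carried markers of both, and 2037 cells had no class. The mix of cells and the tdT gate set how many cells each class held: podocyte-like cells numbered 4165, 4983 and 7996 (Sham, IRI24h-TDN, IRI24h-TD), macrophage-like cells 240, 654 and 10, PTEC-like cells 770, 95 and 31, and PEC/PTEC-like cells 389, 117 and 152. Levels are UMIs of a gene over all UMIs of a class in a library, scaled to 1000000 UMIs (CPM), with exact 95% Poisson intervals for levels, exact conditional intervals for ratios and Clopper-Pearson intervals for shares, all of which cover counting error only. Counts at or past 2-fold are set beside the share of all genes with at least 10 UMIs that did the same.

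On mm10, the 3 C1q genes lay side by side on the minus strand, C1qa at chr4:136895917-136898803, C1qc at chr4:136889804-136893065 and C1qb at chr4:136880129-136886187. Gaps of 2851 bases between C1qa and C1qc and of 3616 bases between C1qc and C1qb separated them, and each had 3 exons. C4b (chr17:34728380-34743882, minus strand, 41 exons) and Cfb (chr17:34856374-34862518, minus strand, 18 exons) were 112491 bases apart, and C3 (chr17:57203970-57228136, minus strand, 41 exons) was farther along the same chromosome. Cd55 was at chr1:130439027-130462744 (minus strand, 10 exons), Cd59a at chr2:104095801-104115354 (plus strand, 4 exons) and Serping1 at chr2:84765387-84775444 (minus strand, 8 exons).

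The 250 bases before the start that RefSeq annotates are shown for C1qb and C3, which were led by macrophage-like and PEC/PTEC-like cells, since these hold a letter match to a myeloid or an acute-phase motif. They come from RefSeq (GRCm38.p6), are written from 5′ to 3′ on the gene's strand, and cover chr4:136886201-136886450 and chr17:57228137-57228386, both on the minus strand. Capitals mark the core of PU.1 sites (GAGGAA) and a C/EBP-type motif (TTGCNNAA).
C1qb: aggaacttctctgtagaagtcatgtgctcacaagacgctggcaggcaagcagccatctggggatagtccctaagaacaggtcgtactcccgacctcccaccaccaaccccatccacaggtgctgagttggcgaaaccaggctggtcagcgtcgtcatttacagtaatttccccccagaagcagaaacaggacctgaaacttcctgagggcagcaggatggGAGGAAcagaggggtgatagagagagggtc
C3: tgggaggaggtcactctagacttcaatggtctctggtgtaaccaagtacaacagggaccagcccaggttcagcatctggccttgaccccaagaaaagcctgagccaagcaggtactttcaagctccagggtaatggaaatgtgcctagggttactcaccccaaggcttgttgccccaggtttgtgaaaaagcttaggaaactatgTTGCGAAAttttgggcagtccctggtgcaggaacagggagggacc

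The PU.1 letters stood at bases -30 to -25 of C1qb, and the C/EBP letters at -45 to -38 of C3. Over 32851 mouse windows of the same length, 23.3% held GAGGAA and 9.56% held TTGCNNAA on either strand. Windows were found for 5 of the 9 genes. Among these, Cd59a also held GAGGAA, as did C1qc on the other strand, and none held an NF-kB motif (0.356% of windows) or a STAT motif (TTCNNNGAA, 7.02% of windows). The RefSeq start of C1qc lies inside the gene position given above, so its window is not shown. The motifs were chosen after first matches had been seen, and a match shows only that the letters are there.

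**Figure D1:**
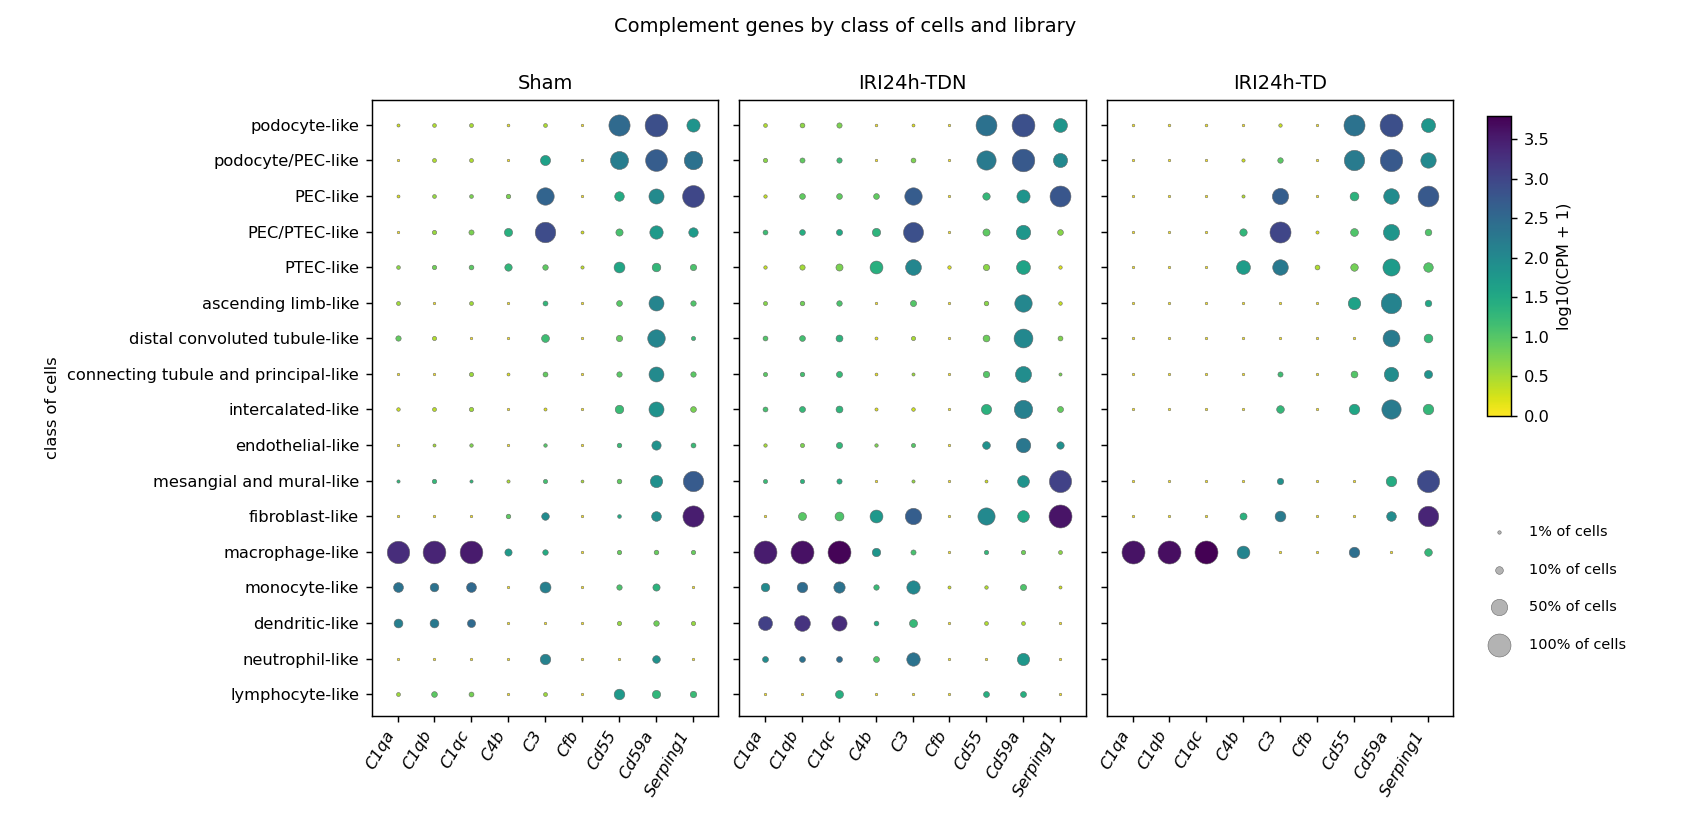
Each dot is 1 gene (x axis) in 1 class of cells (y axis) in 1 library (panel), with its size giving the share of cells with a UMI and its colour log10(CPM + 1); classes under 10 cells in a library are blank. C1q dots are largest in macrophage-like cells, C3 dots in PEC/PTEC-like and PEC-like cells, Cd55 and Cd59a dots in podocyte-like cells, and Serping1 dots in fibroblast-like, mural and PEC-like cells.

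The genes fell on different cells, as the dot plot by class and library shows. Of the 8 with at least 50 UMIs, 5 reached in their leading class at least 2 times the level of the next of 15 classes (C1qa, C1qb, C1qc, C3 and Serping1), against 19.7% of all genes. For C3 this held over pooled libraries but not in IRI24h-TDN, where PEC/PTEC-like cells had 731 CPM and PEC-like cells 507 CPM. Macrophage-like cells led for C1q and C4b, PEC/PTEC-like cells for C3, podocyte-like cells for Cd55 and Cd59a, and fibroblast-like cells for Serping1. Across the 31 groups of class and library with at least 50 cells, which share libraries, C1qa followed C1qb and C1qc closely (Pearson's r of log2(CPM + 10) = 0.993 for each), Cd55 followed Cd59a less closely (r = 0.775), and C3 and C1qa showed little relation (r = -0.098).

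C1qa, C1qb and C1qc encode the 3 chains of C1q, the recognition part of the classical pathway, and tissue macrophages are a known source. Macrophage-like cells held 91.1%, 87.1% and 82.7% of all C1qa UMIs (Sham, IRI24h-TDN, IRI24h-TD), although C1q genes were not among their naming markers. Their C1qa level was 2016 CPM (1931 to 2104) in Sham, 3160 CPM (3105 to 3216) in IRI24h-TDN and 3932 CPM (3439 to 4476) in the 10 cells of IRI24h-TD. The corresponding C1qb levels were 2578, 4107 and 4379 CPM, and those of C1qc 3237, 5632 and 6113 CPM. All 3 chains were thus highest in the injured libraries, without overlap of counting intervals between Sham and IRI24h-TDN.

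Between IRI24h-TDN and Sham, macrophage-like cells had 1.57-fold more C1qa (1.5 to 1.64), 1.59-fold more C1qb (1.53 to 1.66) and 1.74-fold more C1qc (1.68 to 1.8). The median gene in these cells also moved up, by 0.24 on the log2 scale, and with trimmed-mean scaling (TMM) the log2 folds were 0.43, 0.46 and 0.58 instead of 0.65, 0.67 and 0.80. None of the chains passed 2-fold: of 8 complement genes compared there, Cd55 was past it upwards and C3 downwards, against 18.0% and 10% of all genes. C3 was 28.6 CPM in Sham and 11.5 in IRI24h-TDN, on 30 and 45 UMIs, and Cd55 6.68 and 17.8 CPM, with 25.7% of the latter UMIs in 1 cell. Over whole libraries C3 went from 78.0 to 28.3 CPM, and the part of this in the macrophage-like value was not tested.

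Cell by cell, low and high carriers both held more C1q UMIs in IRI24h-TDN. The median macrophage-like cell held 29 C1q UMIs in Sham and 70 in IRI24h-TDN, with lowest deciles of 12 and 35 and highest deciles of 63.2 and 127, at median depths of 4044 and 5404 UMIs. All 3 chains were found together in 92.5% of Sham and 99.5% of IRI24h-TDN cells. The chains differed little in their shares of C1q UMIs: C1qa took 25.8% and 24.5%, C1qb 32.9% and 31.8%, and C1qc 41.3% (40.3 to 42.4) and 43.7% (43.2 to 44.1). These are shares of captured UMIs, with no correction for how well each transcript is captured.

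**Figure D2:**
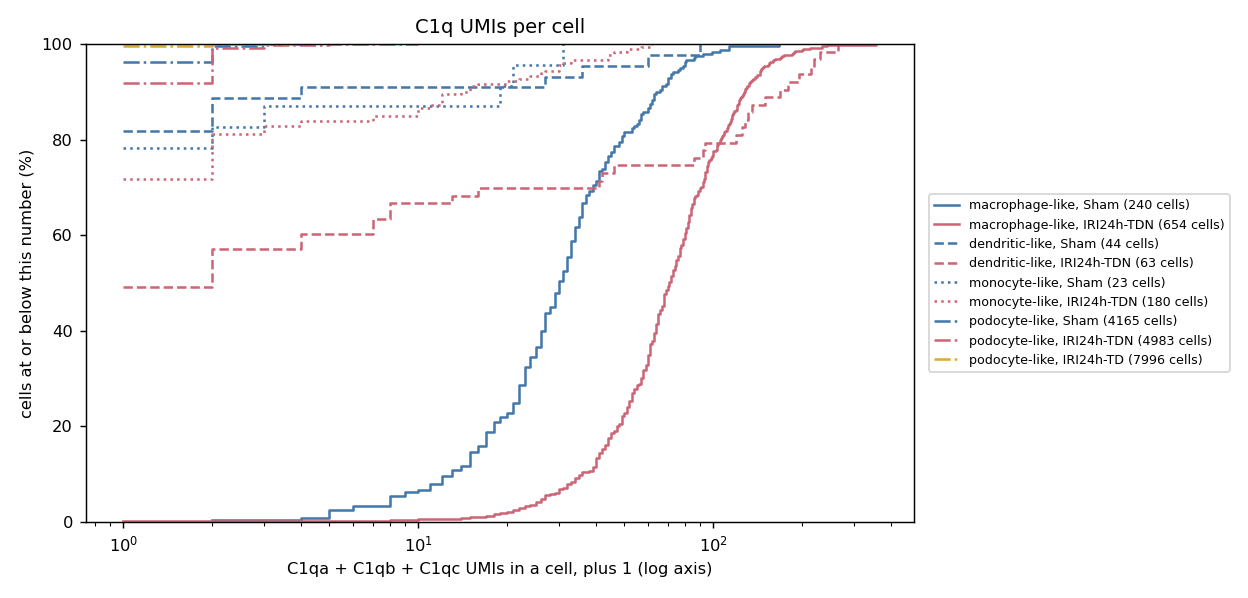
Cumulative share of cells (y axis, %) by their summed C1qa, C1qb and C1qc UMIs plus 1 (x axis, log scale), with line style giving the class and colour the library; groups of 10 or fewer cells are left out. The macrophage-like curve of IRI24h-TDN lies to the right of that of Sham (medians of 70 and 29 UMIs), dendritic-like cells split into cells with none and cells with many, and podocyte-like cells stay near 0.

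Other myeloid classes were mixed. Dendritic-like cells, which present antigen, had C1qa at 146 CPM in Sham and 1180 in IRI24h-TDN, C1qb at 181 and 1705, and C1qc at 312 and 2116. C1q was found in a part of these cells: all 3 chains were found in 9.09% of 44 Sham cells and 34.9% of 63 IRI24h-TDN cells, and 81.8% and 49.2% had no C1q UMI. All 4 complement genes compared in this class (the C1q chains and C4b) were past 2-fold upwards and 0 downwards, against 23.6% and 10.1% of all genes, whose median log2 fold was 0.32. C4b had 0 UMIs in Sham and 16 in IRI24h-TDN, in 2 cells, with 11 of them in 1 cell. The summed level of the 8 macrophage markers in dendritic-like cells moved from 710 to 2834 CPM over the same libraries, and its part in the C1q values was not tested.

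Monocyte-like cells, recruited from blood, differed by chain: C1qa was 229 CPM (142 to 351) in 23 Sham cells and 95 CPM (78.1 to 114) in 180 IRI24h-TDN cells, C1qb 229 and 290 CPM, and C1qc 317 and 222 CPM. Few cells carried these levels: 3 of 23 Sham cells held 95.8% of the C1q UMIs and 24 of 180 IRI24h-TDN cells 90.4%, while 78.3% and 71.7% of cells had none, and 38.1% of the Sham C1qa UMIs came from 1 cell. The macrophage markers summed to 1933 and 3497 CPM in monocyte-like cells of these libraries, and their part in the C1q values was not tested. The intervals of the C1qb and C1qc ratios spanned no difference (0.81 to 2.07 and 0.48 to 1.07).

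Podocyte-like cells, which are not known to make C1q, held few C1q UMIs. C1qa was at 0.862, 1.78 and 0.110 CPM in them (Sham, IRI24h-TDN, IRI24h-TD), and a C1qa UMI was seen in 0.576%, 1.55% and 0.1% of cells at median depths of 8333, 9401 and 9828 UMIs. C1qb and C1qc gave the same order, with shares of 1.47%, 3.19% and 0.1% and of 1.75%, 4.09% and 0.163%. The order of the libraries was that of the C1q level of the whole library, where C1qa stood at 35.6, 161 and 2.98 CPM and where the number of cells of a class and the RNA in each cannot be told apart. The richest podocyte-like cell held 3, 9 and 3 C1q UMIs, and 6 cells of IRI24h-TDN held all 3 chains. Neither free RNA nor doublets were tested as a source of these UMIs. Thinned to 2400 UMIs per cell, a C1qa UMI was left in 94.0% and 98.5% of macrophage-like cells of Sham and IRI24h-TDN and in 0.12% and 0.401% of podocyte-like cells.

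C4b encodes complement C4, the substrate that C1 splits. With 960 UMIs in all it was sparse, and reads of its near-identical neighbour C4a, not analysed here, may be counted in it. Macrophage-like cells led with 54.4 CPM (41.2 to 70.5) in Sham and 62.9 CPM (55.3 to 71.3) in IRI24h-TDN, a ratio of 1.16 (0.86 to 1.57) that does not part the libraries beyond counting error. Over pooled libraries fibroblast-like cells followed at 37.8 CPM (25.7 to 53.6), then PEC/PTEC-like and PTEC-like cells at 21.4 CPM each, with overlapping intervals (18.1 to 25 and 18.5 to 24.5). In Sham alone fibroblast-like cells had 7.70 CPM (0.933 to 27.8), below PEC/PTEC-like cells at 23.0 CPM and PTEC-like cells at 18.7 CPM, so the pooled order rests on IRI24h-TDN.

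In PTEC-like cells, the reabsorbing cells of the proximal tubule, C4b was 18.7 CPM (15.7 to 22.2), 23.6 CPM (16.9 to 32.2) and 49.3 CPM (32.5 to 71.8). The share of cells with a UMI was 9.22%, 30.5% and 35.5%, but median depth also differed (8110, 13938 and 15506 UMIs), and thinned shares were 4.49%, 5.32% and 16.0%. The intervals of Sham and IRI24h-TDN overlapped, whereas IRI24h-TD was 2.64-fold (1.68 to 4.01) above Sham, on 27 UMIs in 31 cells. Fibroblast-like cells had 2, 27 and 2 UMIs, a ratio of 7.43 (1.87 to 64.5) between IRI24h-TDN and Sham. Podocyte-like cells were at 0.306, 0.124 and 0.037 CPM.

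C3, the component on which all pathways meet, was carried mainly by PEC/PTEC-like and PEC-like cells. The former had 822 CPM (794 to 851), 731 CPM (688 to 775) and 974 CPM (928 to 1022) in library order, and 79.2%, 75.2% and 83.6% of these cells had a C3 UMI. They held 64.1%, 44.7% and 56.8% of all C3 UMIs while making up 4.83%, 1.30% and 1.57% of cells. Injury libraries lay on both sides of Sham here, by a log2 fold of -0.17 (-0.27 to -0.07) and 0.24 (0.16 to 0.33). C3 was spread unevenly within the class: the median cell of Sham held 5 C3 UMIs, the lower quartile was 1 and the richest cell held 75.

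PEC-like cells came next with 382, 507 and 459 CPM, and the class held 2 clusters that differed. The cluster led by Tnc, Cp and Wnt16 had 529, 834 and 686 CPM. The cluster led by Clstn2, Cpe and Fbn1 had 264, 166 and 242 CPM. In podocyte/PEC-like cells C3 was 42.0 CPM (32.6 to 53.1), 4.65 CPM (2.23 to 8.54) and 8.22 CPM (5.70 to 11.5), and Sham stood apart from both injury libraries. Podocyte-like cells were near 0, with a C3 UMI in 1.59%, 0.442% and 1.05% of cells. Over whole libraries C3 was at 78.0, 28.3 and 31.7 CPM, and free RNA was not tested as a source of the podocyte-like UMIs.

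PTEC-like cells showed a wide gap between libraries. Their C3 level was 7.62 CPM (5.74 to 9.92), 112 CPM (96.8 to 129) and 179 CPM (145 to 218). These are ratios of 14.7 (10.9 to 20.3) and 23.5 (16.7 to 33.3) to the same Sham library. A C3 UMI was found in 4.55%, 46.3% and 45.2% of cells, and in 1.85%, 17.0% and 20% after thinning, so both injury libraries stayed above Sham at equal depth. The Sham share lies above that of podocyte-like cells (1.59%, at a median of 8333 UMIs against 8110).

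The size of this gap depended on which cells were called PTEC. In cluster 9 C3 was 7.81 CPM in Sham and 123 in IRI24h-TDN, and in cluster 23 it was 6.81 and 52.4 CPM, the latter on 20 cells. When each cell was named on its own from the marker lists, which put 1293 Sham cells in the class, the log2 fold was 0.25 (0.10 to 0.41) instead of 3.88. In IRI24h-TDN 1 cell held 21.1% of the C3 UMIs of the class, and in IRI24h-TD 33.7%. Of 9 complement genes compared in PTEC-like cells of IRI24h-TDN and Sham, 2 were past 2-fold upwards (C3 and Cd59a) and 5 downwards, against 15.9% and 17.0% of all genes. Among those downwards, the ratio intervals of Cd55 and Serping1 excluded no difference. The intervals of C1qa, C1qb and Cfb spanned it, on 2 and 26, 4 and 41, and 1 and 10 UMIs (IRI24h-TDN and Sham). In IRI24h-TD against Sham, 3 of 9 (C3, C4b and Cd59a) were past 2-fold upwards and 4 downwards, against 17.7% and 19.0% of all genes. Those downwards were Cd55 and the C1q chains. C1qa, C1qb and C1qc had 0 UMIs each in the 31 cells of IRI24h-TD, against 26, 41 and 58 in Sham, so their calls stood at the counting floor.

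PTEC-like cells differed between libraries in injury and transport genes as well. Havcr1, the tubular injury marker Kim1, was at 6.24, 2351 and 1966 CPM, and the phosphate transporter Slc34a1 at 5241, 825 and 925 CPM. Within IRI24h-TDN, 48.1% (36.7 to 59.6) of 79 cells with a Havcr1 UMI had a C3 UMI, and 37.5% (15.2 to 64.6) of 16 cells without. In Sham these shares were 12.5% (3.51 to 29.0) of 32 cells and 4.20% (2.87 to 5.91) of 738 cells. In IRI24h-TD they were 40.9% (20.7 to 63.7) of 22 cells and 55.6% (21.2 to 86.3) of 9 cells. C3 with and without Havcr1 was at 111 and 123 CPM in IRI24h-TDN, 14.6 and 7.28 CPM in Sham, and 36.4 and 765 CPM in IRI24h-TD. Cells with a Havcr1 UMI were deeper, which bears on the shares. Their median was 17345 UMIs against 11501 in IRI24h-TDN, 9360 against 8056 in Sham and 16060 against 10532 in IRI24h-TD. The intervals of the shares of cells with and without Havcr1 overlapped in each library.

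The PEC markers also differed in PTEC-like cells. Their 10 genes summed to 107, 1014 and 1636 CPM in library order, among them Cp, the copper carrier ceruloplasmin, at 11.2, 77.4 and 307 CPM. The 16 PTEC markers summed to 28140, 10420 and 11070 CPM. The part of these in the C3 values was not tested.

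**Figure D3:**
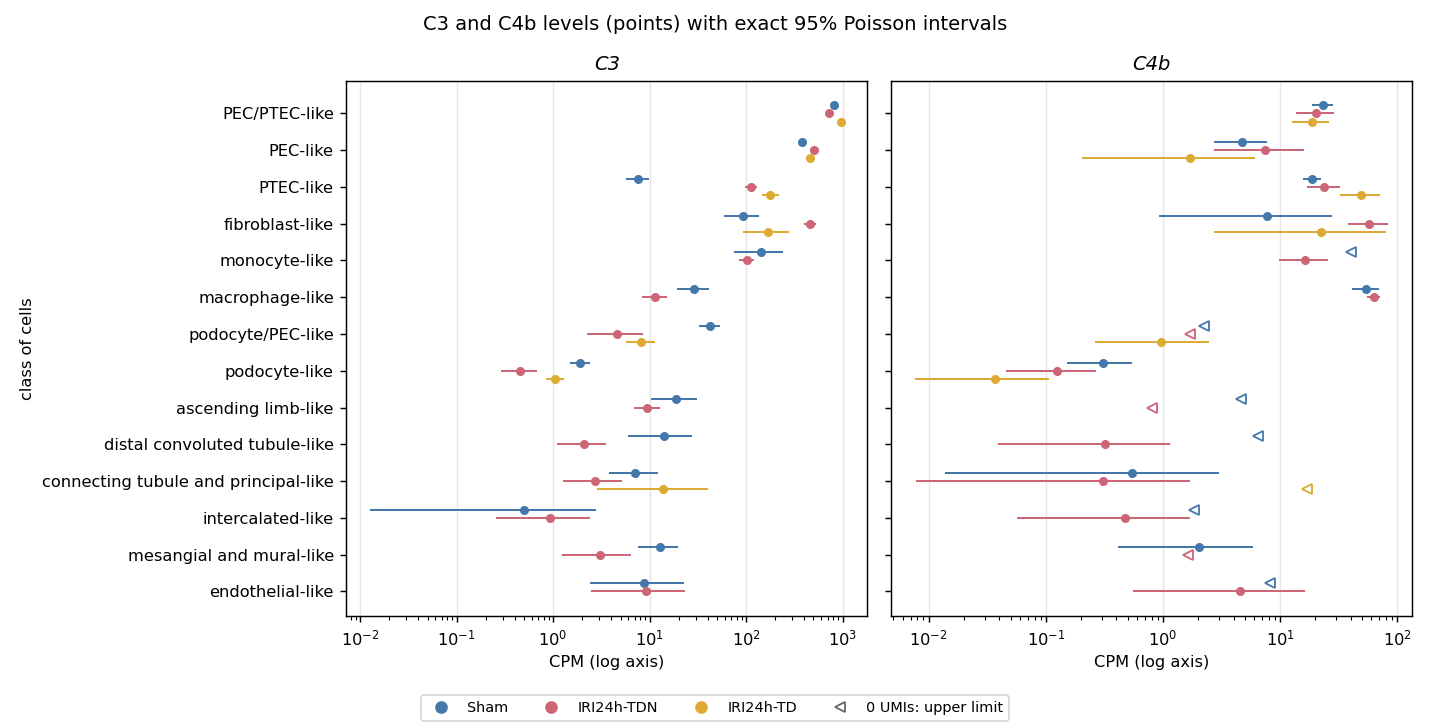
Levels of C3 (left) and C4b (right) in CPM on a log axis, by class (y axis) and library (colour), with exact 95% Poisson intervals as bars and open triangles at the upper limit where no UMI was counted; groups under 20 cells are left out. C3 in PTEC-like cells is at 7.62 CPM in Sham and at 112 and 179 CPM after injury, while PEC/PTEC-like cells lie between 731 and 974 CPM.

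Fibroblast-like cells, the matrix-making stroma, had C3 at 92.4 CPM (59.2 to 138) in 71 Sham cells, 460 CPM (401 to 525) in 36 IRI24h-TDN cells and 168 CPM (93.9 to 277) in 24 IRI24h-TD cells. The richest cell held 50%, 24.4% and 73.3% of those UMIs. The ratio of IRI24h-TDN to Sham was 4.98 (3.26 to 7.94), yet median depth was 12041 UMIs in IRI24h-TDN and 2906 in Sham, and naming cell by cell, which put 997 Sham cells in the class, turned the log2 fold from 2.31 to -0.16 (-0.42 to 0.097). The class itself differed between libraries: its 6 fibroblast markers summed to 13830, 34830 and 4575 CPM and the 10 PEC markers to 4220, 2746 and 8736 CPM, so that in IRI24h-TD the PEC sum was the higher. Their part in the values of this class was not tested. Of 5 complement genes compared in this class, C3, C4b and Cd55 were past 2-fold upwards and Cd59a downwards, against 16.9% and 19.3% of all genes. Monocyte-like cells had 142 CPM in Sham and 102 CPM in IRI24h-TDN, with overlapping intervals (75.6 to 243 and 84.3 to 122).

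Cfb encodes factor B, the protease of the alternative pathway that joins C3b. It was almost absent, with 16, 2 and 3 UMIs (Sham, IRI24h-TDN, IRI24h-TD). Of these, 10 were in Sham PTEC-like cells (1.39 CPM). Podocyte-like cells had 0 Cfb UMIs in all libraries, which allows a level of up to 0.083, 0.062 and 0.037 CPM (3 counts per library). Over whole libraries Cfb was 0.246 CPM (0.141 to 0.399), 0.0227 CPM (0.00274 to 0.0818) and 0.0323 CPM (0.00666 to 0.0944), so Sham lay above both others beyond counting error, with 770, 95 and 31 PTEC-like cells in these libraries. Within PTEC-like cells a difference was not detectable at this depth, with 1.39 CPM (0.665 to 2.55), 0.591 CPM (0.0150 to 3.29) and 1.83 CPM (0.0463 to 10.2).

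Cd55 encodes decay-accelerating factor, which takes apart C3 convertases on the cell's own membrane. Podocyte-like cells held 89.6%, 89.6% and 94.8% of its UMIs while making up 51.8%, 55.2% and 82.5% of cells. Their level was 310 CPM (305 to 316), 237 CPM (232 to 241) and 230 CPM (227 to 233) in library order. Both injury libraries were lower than Sham, by a log2 fold of -0.39 (-0.43 to -0.35) and -0.43 (-0.47 to -0.40). After thinning, 50%, 42.5% and 41.1% of podocyte-like cells had a Cd55 UMI, against 84.7%, 82.3% and 83.6% at full depth. In macrophage-like cells the full-depth share was 2.5% and 2.45% in Sham and IRI24h-TDN, at median depths of 4044 and 5404 UMIs. All 6 podocyte-like clusters moved the same way, from between 291 and 324 CPM in Sham to between 232 and 246 CPM in IRI24h-TDN.

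In podocyte/PEC-like cells Cd55 did not show this drop, with 154 CPM (135 to 174), 176 CPM (158 to 194) and 165 CPM (153 to 178). PTEC-like cells had 253 Cd55 UMIs in Sham (35.1 CPM, 21.3% of cells), 6 in IRI24h-TDN (3.54 CPM, 6.32% of cells) and 3 in IRI24h-TD (5.48 CPM, 9.68% of cells), or 9.90-fold (4.48 to 27.2) less in IRI24h-TDN. The Sham UMIs lay mostly in cluster 9 (41.2 CPM there), while cluster 23 had 7.56 CPM in Sham and 7.48 in IRI24h-TDN. The summed level of the 10 podocyte markers in PTEC-like cells was 725, 266 and 1259 CPM, and its part in these values was not tested.

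Endothelial-like cells had Cd55 at 15.4 CPM (6.20 to 31.8) in Sham and 75 CPM (51.6 to 105) in IRI24h-TDN, with 30.3% of the latter UMIs in 1 cell and thinned shares of 5.48% and 7.29%. In fibroblast-like cells it was 30.8 CPM in Sham, where all 8 UMIs came from 1 cell, 99.6 CPM in IRI24h-TDN, where 55.6% of cells had a UMI, and 0 of 24 cells in IRI24h-TD. Reads of the neighbouring paralog Cd55b, with 3 UMIs in all, could be split with Cd55.

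**Figure D4:**
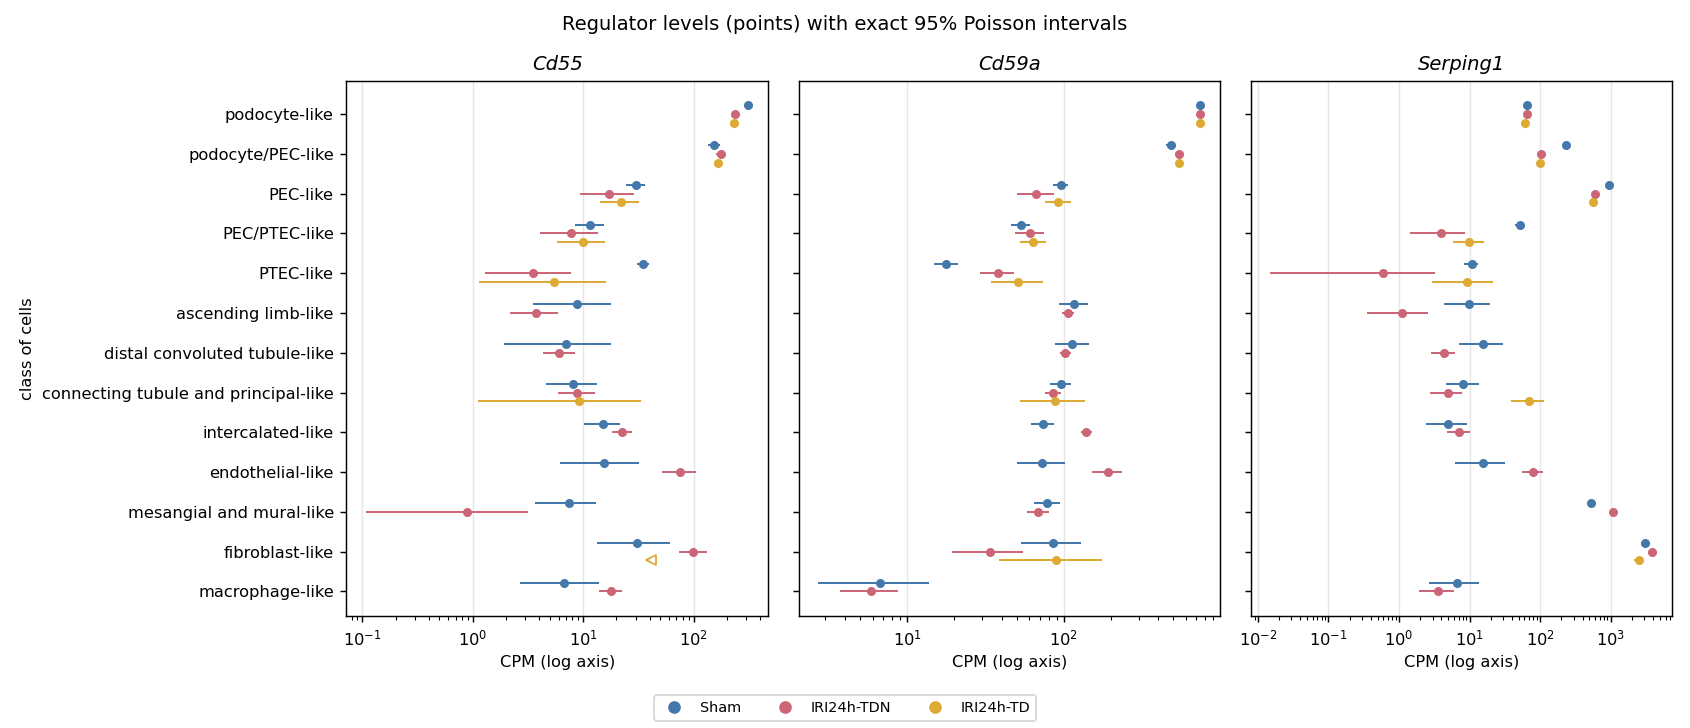
Levels of Cd55, Cd59a and Serping1 in CPM on log axes, by class (y axis) and library (colour), with exact 95% Poisson intervals as bars; open triangles stand at the upper limit where no UMI was counted and groups under 20 cells are left out. In podocyte-like cells Cd55 is at 310 CPM in Sham and at 237 and 230 CPM after injury, while Cd59a lies between 736 and 745 CPM.

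Cd59a encodes the mouse CD59 that blocks the last step of the cascade, insertion of C9 into the membrane. Its level differed little in the class that led: podocyte-like cells had 742 CPM (734 to 751), 736 CPM (729 to 744) and 745 CPM (739 to 751), and 97.7%, 98.6% and 99.0% of cells had a UMI. The log2 folds to Sham were -0.01 (-0.04 to 0.01) and 0.01 (-0.02 to 0.03). The median podocyte-like cell held 6, 6 and 7 Cd59a UMIs. Single clusters ranged more widely, from 620 to 865 CPM over the libraries, and cluster 4 had 726 CPM in Sham and 620 in IRI24h-TDN while cluster 0 had 718 and 782.

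So Cd55 and Cd59a, both membrane regulators led by podocyte-like cells, did not move alike in this class. The intervals of their log2 folds did not overlap in either injury library, and this difference was not tested. Of 8 complement genes compared in podocyte-like cells of IRI24h-TDN and Sham, 2 were past 2-fold upwards (C1qa and C1qc, at the low levels given above) and 2 downwards (C3 and C4b), against 6.26% and 11.8% of all genes. In IRI24h-TD the same Sham library gave 0 upwards and 4 downwards, the C1q chains and C4b, against 6.03% and 14.1% of all genes.

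Outside podocyte-like and podocyte/PEC-like cells Cd59a was lower. Over pooled libraries it was 130 CPM (108 to 156) in endothelial-like, 119 CPM (111 to 128) in intercalated-like, 108 CPM (99.8 to 117) in ascending limb-like and 104 CPM (97.0 to 112) in distal convoluted tubule-like cells, neighbours whose intervals overlapped, against 23.3 CPM in PTEC-like and 5.96 CPM in macrophage-like cells. The small neutrophil-like class had 63.9 CPM, on 9 UMIs in 39 cells. This order was not that of Sham, where ascending limb-like cells had 116 CPM, distal convoluted tubule-like cells 113.5, intercalated-like cells 73.3 and endothelial-like cells 72.8. Intercalated-like cells, which secrete acid in the collecting duct, went from 73.3 CPM (61.9 to 86.2) in Sham to 139 CPM (128 to 151) in IRI24h-TDN. Both of their clusters were higher, from 71.6 to 154 CPM in the Slc26a4 cluster and from 74.3 to 104 CPM in the Aqp6 cluster, and thinning to equal depth gave a log2 fold of 0.58 (-0.0052 to 1.19) instead of 0.93. Ascending limb-like cells had 116 and 107 CPM in the same libraries, with overlapping intervals (93.5 to 142 and 97.2 to 116).

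Endothelial-like cells had Cd59a at 72.8 CPM (50.1 to 102) in Sham and 191 CPM (152 to 236) in IRI24h-TDN, a ratio of 2.62 (1.74 to 4.05), with thinned shares of 16.4% and 31.3%. Coarser clustering, with 197 Sham and 101 IRI24h-TDN cells in the class instead of 177 and 97, gave a log2 fold of -0.16 (-0.53 to 0.21) in place of 1.39, and naming cell by cell gave 0.0026 (-0.25 to 0.25). The 10 podocyte markers summed to 2806 and 2700 CPM in these cells, while the 6 fibroblast markers went from 2.20 to 473 CPM and the 10 PEC markers from 536 to 1239 CPM. The part of these markers in the Cd55, Cd59a and Serping1 values of the class was not tested. All 4 complement genes compared in endothelial-like cells (Cd55, Cd59a, Serping1 and, on 8 and 2 UMIs, C1qc) were past 2-fold upwards and 0 downwards, against 9.75% and 11.1% of all genes. In PTEC-like cells Cd59a went from 17.7 CPM to 37.8 and 51.2 CPM, with thinned shares of 3.96%, 4.26% and 20% (25 cells in IRI24h-TD). Naming cell by cell gave a log2 fold of 0.27 (0.0030 to 0.53) between IRI24h-TDN and Sham in place of 1.09.

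Serping1 encodes C1 inhibitor, the plasma serpin that stops C1r, C1s and the MASPs. Fibroblast-like cells led with 3038 CPM (2830 to 3257), 3837 CPM (3663 to 4018) and 2483 CPM (2167 to 2832). The ratio of IRI24h-TDN to Sham was 1.26 (1.16 to 1.38), but 14.3% of the Sham UMIs and 43.2% of the IRI24h-TD UMIs were in 1 cell. With stricter cell filters 7 Sham cells were left in the class and the log2 fold was -0.85 instead of 0.34, so its direction depends on which Sham cells are counted. The libraries stood in the same order as for the fibroblast marker sum of this class, whose part was not tested.

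Mesangial and mural-like cells, the contractile cells of the glomerular tuft and vessel walls, had Serping1 at 520 CPM (484 to 558) in Sham, 1089 CPM (1046 to 1132) in IRI24h-TDN and 866 CPM (697 to 1065) in 15 IRI24h-TD cells. IRI24h-TDN was 2.09-fold (1.93 to 2.27) above Sham, at median depths of 4865 and 5315 UMIs, and thinned shares were 82.2% in IRI24h-TDN and 61.3% in Sham. Both clusters were higher, from 400 to 661 CPM in the cluster led by Ren1 and Acta2 and from 925 to 1848 CPM in the cluster led by Rgs5 and Notch3. Of 7 complement genes compared in this class, Serping1 was past 2-fold upwards and C3 and Cd55 downwards, on 19 and 7 and on 11 and 2 UMIs (Sham and IRI24h-TDN), against 6.83% and 8.68% of all genes.

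PEC-like cells were lower after injury, with Serping1 at 946 CPM (913 to 979), 594 CPM (542 to 649) and 560 CPM (518 to 604). The log2 fold of IRI24h-TDN to Sham was -0.67 and ran from -2.45, naming cell by cell, to -0.27, thinned, over 12 alternatives. The cluster led by Tnc, Cp and Wnt16 had 677, 251 and 285 CPM, and that led by Clstn2, Cpe and Fbn1 1162, 952 and 823 CPM. In PEC/PTEC-like cells the level was 51.6, 3.92 and 9.89 CPM, on 204, 6 and 17 UMIs, with thinned shares of 7.96%, 0.909% and 0%. In podocyte/PEC-like cells it was 235, 103 and 99.9 CPM. All 3 classes named after PECs, alone or in a pair, therefore had less Serping1 in both injury libraries than in the shared Sham library. Marker sums of other Serping1-rich cells differed too. In podocyte/PEC-like cells the fibroblast markers summed to 944, 584 and 521 CPM, the mesangial and mural markers to 419, 183 and 139 CPM, and the PEC markers to 2629, 1672 and 1766 CPM. In PEC/PTEC-like cells the first 2 sums were 13.2, 3.92 and 9.89 CPM and 303.5, 164 and 189 CPM. In PEC-like cells they were 806, 847 and 569 CPM and 932, 1198 and 934 CPM. The PEC markers were higher in both injury libraries in these 2 classes. They summed to 4796, 6766 and 8700 CPM in PEC/PTEC-like cells and to 8034, 12900 and 12730 CPM in PEC-like cells. The part of all these sums in the Serping1 values was not tested. Within the Tnc cluster of PEC-like cells C3 was higher and Serping1 lower after injury.

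Podocyte-like cells had Serping1 at 66.2, 64.4 and 60.7 CPM, with a UMI in 32.1%, 35.6% and 36.4% of cells. Macrophage-like cells of Sham and IRI24h-TDN had a UMI in 2.5% and 1.68%, at lower median depths (4044 and 5404 UMIs against 8333 and 9401). Thinned to 2400 UMIs, the shares over pooled libraries were 13.2% of podocyte-like and 1.02% of macrophage-like cells. The 6 podocyte-like clusters differed in opposite directions. Clusters 0 and 2, led by Smyd1, were higher, from 42.3 to 79.6 CPM and from 51.3 to 82.2 CPM between Sham and IRI24h-TDN. Clusters 1, 3 and 4 were lower, from 85.6 to 55.6, from 94.3 to 62.2 and from 79.0 to 34.2 CPM, and cluster 5 had 56.9 and 63.9 CPM. IRI24h-TD gave 70.1, 58.1, 76.9, 58.6, 32.4 and 56.8 CPM in clusters 0 to 5.

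**Figure D5:**
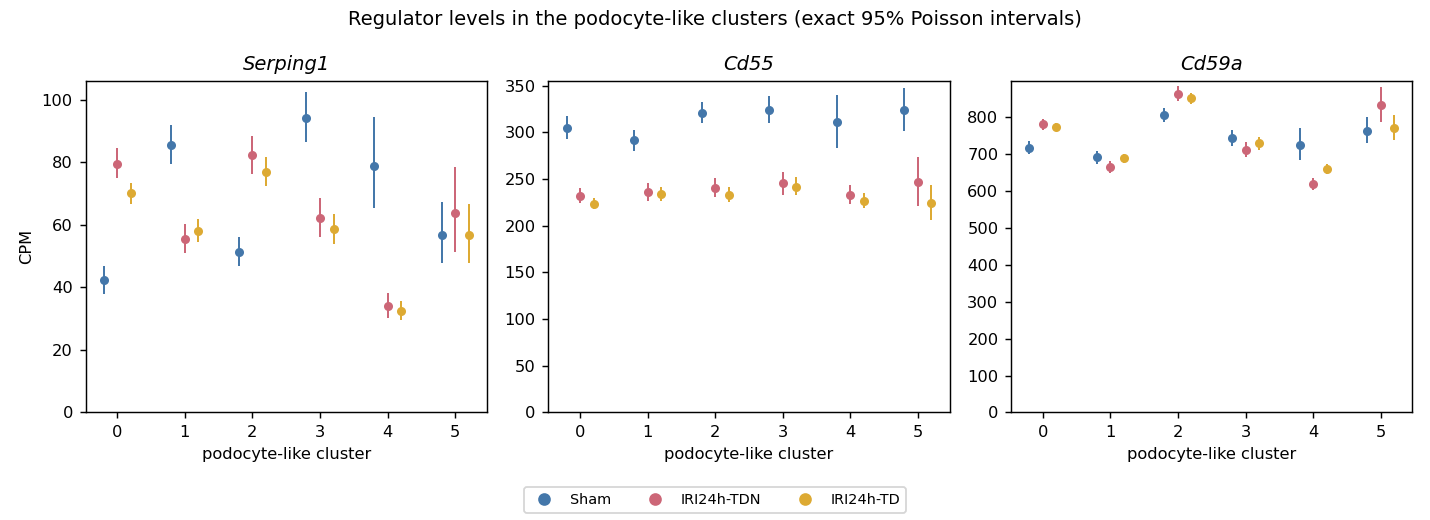
Levels in CPM (y axis, from 0) of Serping1, Cd55 and Cd59a in the 6 podocyte-like clusters (x axis, numbered 0 to 5) by library (colour), with exact 95% Poisson intervals. Cd55 of Sham lies above both injury libraries in every cluster, while Serping1 of Sham lies below them in clusters 0 and 2 and above them in clusters 1, 3 and 4.

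Further complement genes came from a list of 50, of which 48 were listed in the matrices and 33 had at least 50 UMIs. Fibroblast-like cells led for 7 of these and macrophage-like cells for 6, followed by PEC/PTEC-like and endothelial-like cells with 4 each. The macrophage-led genes C1qbp, C5ar1, C6 and C3ar1 were at 1.11, 1.13, 1.33 and 1.64 times the level of the next class. Fcna and Vsig4 were farther ahead (9.36 and 104.8 times), but 22 and 3 cells in all had a UMI. Clu, the soluble regulator clusterin, was at 1661 CPM in connecting tubule and principal-like cells of Sham and at 19120 and 18560 CPM in IRI24h-TDN and IRI24h-TD. C1ra, the protease bound to C1q, was at 293, 492 and 179 CPM in fibroblast-like cells, where its paralog C1rb could share reads.

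Several receptors for cleavage products were led by leukocytes, whereas Cr2, a receptor for C3 fragments, was led by connecting tubule and principal-like cells (39.8, 7.03 and 4.61 CPM). In macrophage-like cells C3ar1 was at 634 CPM in Sham and 549 CPM in IRI24h-TDN, and C5ar1 at 558 and 741 CPM. Itgam, a chain of complement receptor 3, was at 579 and 2342 CPM in monocyte-like cells. In macrophage-like cells 8 of 19 listed genes were past 2-fold upwards and 2 downwards, against 18.0% and 10% of all genes, with a median log2 fold of 0.87 beside 0.24 over all genes. In PTEC-like cells 10 of 20 were past it upwards and 4 downwards, against 15.9% and 17.0%, with a median of 1.1 beside 0.06. In podocyte-like cells 7 of 26 were past it upwards and 2 downwards, against 6.26% and 11.8%, with a median of 0.13 beside -0.07. No gene counted upwards in PTEC-like or podocyte-like cells was led by that class. Those in PTEC-like cells included Cfp, Itgam and Itgb2, led by monocyte-like cells, and those in podocyte-like cells Itgam and Itgb2. In macrophage-like cells only Fcna, Vsig4 and C1qbp were led by the class, and Vsig4 rested on 3 cells. The part of other classes in these counts was not tested.

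Genes whose pattern was most like that of a member, over the same 31 groups, were Cx3cr1 for C1qa (r = 0.983), itself a marker used for naming macrophages. For C3 they were Gm19935 (r = 0.893), Osr2 (r = 0.889) and Wasf1 (r = 0.876), and for C4b Slc29a3 (r = 0.955). Cd55 was closest to 9930012K11Rik (r = 0.941) and Coro2b (r = 0.934), Cd59a to Bcl2l2 (r = 0.934), and Serping1 to Ogn (r = 0.960), Pdgfrb (r = 0.951) and Des (r = 0.949).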

How the data were processed

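The values deposited by the authors were UMI counts, held as 3 matrices of genes by barcodes in whole numbers. The submitters' processing notes name mm10, CASAVA 1.8, UMI-tools and Seurat without roles, and annotation and earlier filters are not given in the sources used here. Total UMIs in kept cells were 65065819 (Sham), 88290370 (IRI24h-TDN) and 92889327 (IRI24h-TD). Cells with under 200 genes or over 50% mitochondrial UMIs were left out. The paper states that multiplets were excluded, and leaving out the top 6% of doublet scores was an alternative. That score marked 16.8% of cells without a class name, 12.3% of podocyte/PEC-like and 6.37% of podocyte-like cells. In any other class it marked at most 2.29%. Counts were normalised to log values, 2000 variable genes without ribosomal, mitochondrial and complement genes gave 30 components, libraries were aligned by a Harmony-type correction, and Leiden clusters (leidenalg 0.10.2, resolution 1, 15 neighbours) were named from marker lists. A second round of clustering, the naming thresholds and the paired names were set after the clusters had been seen. The order of the naming rules and a lower limit of 0.1 on the second score were changed after complement levels by class had been seen, and the last change left the classes as they were. Members and lists were chosen with earlier results of these data known, and folds outside leading classes after the data were seen.

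Named genes were the 9 members, listed complement genes with at least 50 UMIs, and the genes closest to each member by correlation among genes with at least 200 UMIs. A listed gene that this rule names is not reported here. Gene positions are from GENCODE M21. No test was run: with 1 library per condition only counting intervals (scipy 1.17.1) were computed. TMM factors came from edgeR 4.0.16, as an alternative only. Clustering and folds were tested on simulated data. Alternatives were other cell filters, clusterings, scalings and depth thinning.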

Additional observations from a re-analysis of the deposited data

Results flagged for a closer look

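With the classes as named here, several genes moved in opposite directions in different classes between IRI24h-TDN and Sham. These differences between classes were not tested. The log2 fold of C1qa was 3.57 (1.65 to 6.66) in intercalated-like cells, on 51 and 2 UMIs, and -1.27 (-1.95 to -0.52) in monocyte-like cells. The 8 macrophage markers summed to 40.4 and 9.04 CPM in the intercalated-like cells of IRI24h-TDN and Sham, and their part in the C1qa value was not tested.

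C3 had a log2 fold of 3.88 (3.44 to 4.34) in PTEC-like cells and -3.17 (-4.30 to -2.21) in podocyte/PEC-like cells, on 190 and 55 and on 10 and 69 UMIs. Cd55 had a log2 fold of 2.28 (1.08 to 3.70) in endothelial-like and -3.31 (-4.77 to -2.16) in PTEC-like cells. Cd59a had 1.39 (0.80 to 2.02) in endothelial-like and -1.32 (-2.35 to -0.33) in fibroblast-like cells, the latter on 16 and 22 UMIs. Serping1 had 2.37 (1.17 to 3.78) in endothelial-like cells, where 57.1% of the IRI24h-TDN UMIs came from 1 cell. In PTEC-like cells it had -4.18 (-9.50 to -1.65), on 1 and 77 UMIs. Over alternatives, the PTEC-like log2 folds ran from 0.25 to 4.01 for C3 and from -3.88 to -0.016 for Cd55. That of Cd59a in endothelial-like cells ran from -0.16 to 1.46.

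Cells left without a class name, which entered no comparison, held C1q as well. Their level in IRI24h-TDN was 10.6 times that in Sham for C1qa (7.7 to 15), 9.2 times for C1qb (7.1 to 12.2) and 11.8 times for C1qc (9.2 to 15.3). Of the 768 C1qa UMIs in IRI24h-TDN, 750 were in 59 cells of 1 cluster that also carried podocyte genes, with C1qa at 968 CPM and Cd59a at 498 CPM.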

How the results depend on the processing

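No paired analysis was possible because each condition had 1 library. Values here are log2 folds of IRI24h-TDN to Sham. Direction was kept in every alternative run for C1q and Cd55 in their leading classes and in the 7 that kept PEC/PTEC-like cells as the leading class of C3 (0.43 to 0.70 for C1qa, 0.46 to 0.72 for C1qb, 0.58 to 0.86 for C1qc, -0.42 to -0.33 for Cd55, -0.67 to -0.15 for C3), for C3 in PTEC-like cells (0.25 to 4.01) and for Serping1 in mesangial and mural-like cells (0.72 to 1.11). With TMM factors the values were 0.43 for C1qa, 0.46 for C1qb, 0.58 for C1qc, -0.33 for Cd55 and 0.0495 for Cd59a. Naming cell by cell gave 0.86 for C1qc, 0.25 for C3 in PTEC-like cells, -0.16 for C3 in fibroblast-like cells, 0.047 for Cd59a, -0.063 for Serping1 in fibroblast-like and 0.94 in mesangial and mural-like cells. Within single clusters C3 in PTEC-like cells was 2.94 (cluster 23) and Serping1 in mesangial and mural-like cells 0.72 (cluster 14). Filters of 500 genes and 25% mitochondrial UMIs gave -0.28 for C3 in PEC/PTEC-like cells and -0.85 for Serping1, and no correction between libraries gave -0.67 and -0.93, with 7 and 6 Sham fibroblast-like cells left. Thinning to 2400 UMIs gave -0.38 for C3, -0.32 for C4b, 0.0211 for Cd59a, 0.62 for Serping1 and -0.0779 for Cd59a in PTEC-like cells, and totals without ribosomal and mitochondrial genes -0.0386 for Cd59a. At resolution 0.5 Cd59a in endothelial-like cells was -0.16. Where a value reversed or moved, the cause was not tested. Of the main values, 93 moved by less than their counting interval and 21 by more, and of the others 111 by less, 29 by more and 3 reversed. The leading class of C3 became PEC-like under 3 alternatives, that of Serping1 PEC-like under 1 and mesangial and mural-like under 2, and that of Cfb PEC/PTEC-like under 1. Depth limits Cfb and C4b throughout.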

Other observations

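Cfd, factor D of the alternative pathway, had 1647 UMIs, all in IRI24h-TDN and in 25 cells, and the richest, which had no class name, held 65.0% of them. Fcna, the lectin pathway recognition protein ficolin A, was at 0.955 CPM in macrophage-like cells of Sham and 72.8 CPM in those of IRI24h-TDN, where 1.53% of cells had a UMI, and 78 of the 80 UMIs of IRI24h-TD lay in 1 macrophage-like cell. C7, a chain of the membrane attack complex, was at 46.2, 570 and 11.2 CPM in fibroblast-like cells (Sham, IRI24h-TDN, IRI24h-TD), and 35 cells in all had a UMI. C8a, a chain of the same complex, had 209 UMIs in PTEC-like cells of Sham (29.0 CPM) and 2 in those of IRI24h-TDN (1.18 CPM). Cd59b, a paralog of Cd59a whose reads could be split with it, was at 59.6, 25.2 and 26.0 CPM in podocyte-like cells. Cr1l, the rodent membrane regulator Crry, was at 258 and 250 CPM in endothelial-like cells of Sham and IRI24h-TDN. Colec12, a scavenger collectin, was at 431, 521 and 521 CPM in podocyte-like cells.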
